A study of Mus musculus with 9 samples.

Results

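The genes described here encode the enzymes and transporters of mitochondrial and peroxisomal fatty acid oxidation. They were chosen by name, as 37 mouse symbols looked up in the gene-level table. Only genes with a count over 10 in 3 or more libraries were kept. No difference between groups entered that rule, but the choice was made with earlier results of these data known. All 37 were found among the 54432 genes of the table. The 12637 genes tested had passed the same count filter, so it was fixed in advance that all 37 were among them. The lowest count of any of the 37 genes in any library was 25 (*Ehhadh*), so none of them passed the filter through the group in which it was high. RNAseq was performed on RAW 264.7 cells, an established mouse macrophage line, which were left untreated (control), or were treated at 1 mM for 6 hours with VLDL-sized emulsion particles (VLDLsep in the labels) or with larger, chylomicron-sized (CHYL-sized) emulsion particles (CHYLsep), with 3 libraries per group. Both particles were made of sunflower oil with caseinate as emulsifier. The control cells are labelled untreated, so the lipid and the emulsifier cannot be told apart. All groups are cultures of a single cell line. Parallel samples within an experiment were pooled before sequencing, as the methods state, so each library is a pool and p-values measure the spread between such pools.

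Long-chain fatty acids reach the mitochondrial matrix through the carnitine shuttle, in which CPT1 on the outer membrane makes acylcarnitine, the carrier SLC25A20 exchanges it across the inner membrane and CPT2 restores the acyl-CoA. In the matrix each turn of beta-oxidation comprises a dehydrogenation, a hydration, another dehydrogenation and a thiolysis, which yields acetyl-CoA. Peroxisomes shorten very long-chain and branched fatty acids that enter through ABCD transporters, and their acyl-CoA oxidases pass electrons to oxygen, which makes hydrogen peroxide. In macrophages fatty acid oxidation is known as a fuel pathway that competes with storage of the same fatty acids in lipid droplets.

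The 9 libraries held 22393893 to 22856792 estimated counts, and a count of 10 equals about 0.44 cpm, the count scaled to a library of 1000000. Levels below are cpm of the library size adjusted by TMM, the trimmed mean of M-values, and are given as mean ± SD of 3 libraries. The 9 macrophage markers examined, among them *Cd68*, *Csf1r* and *Lyz2*, were present in every library, with a summed level of 6924 to 7009 cpm in control, 6181 to 6374 cpm after VLDL-sized and 6359 to 6560 cpm after CHYL-sized particles. The markers did not move together. At an adjusted p under 0.05 in the fit below, *Cd68* was higher after VLDL-sized particles (log2 fold change 0.17). *Lyz2*, *Itgam*, *Spi1*, *Ptprc*, *Cd14* and *Fcgr1* were lower (-0.14 to -0.83), and *Csf1r* and *Adgre1* did not pass. After CHYL-sized particles only *Ptprc*, *Cd14* and *Fcgr1* passed, all lower. Whether these differences have a part in the results below was not tested. Of 22 markers of hepatocytes, adipocytes, fibroblasts, epithelial cells, lymphocytes and muscle, 14 were at 0 in all libraries and 21 failed the filter; the exception was *Pdgfra*, at 1.33 to 2.44 cpm. The libraries of replicate 3 stood apart: the chi-square per gene against the other libraries of the same group was 11.9 to 15.1, compared with 3.38 to 5.02 between replicates 1 and 2. Counts over all 37 genes without replicate 3 are therefore given beside the main ones. For the neighbouring lists such counts are given in part only.

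Of the 37 genes, 7 were higher and 3 were lower after VLDL-sized emulsion particles than in control (limma with voom weights, adjusted p under 0.05, Benjamini-Hochberg over all 12637 genes). *Cpt1a*, the outer-membrane entry step, rose 3.10-fold and *Slc25a20*, the inner-membrane carrier, 1.65-fold. Smaller rises were found for *Abcd4*, *Acadvl*, *Eci2*, *Etfdh* and *Acadl*. *Abcd2*, *Crot* and *Acox3*, which act in peroxisomes, fell. The 10 genes make up 27.0% of the 37, while 35.6% of all tested genes passed in this comparison, 17.8% higher and 17.9% lower. An absolute log2 fold change over 0.5 was reached by 3 of them (*Cpt1a*, *Slc25a20* and *Abcd2*), against 14.6% of all genes, and for 17 of the 37 every VLDL-sized library lay on the same side of all control libraries, against 47.4% of all genes. The remaining 27 did not pass. The median log2 fold change of the 37 genes was 0.0458, with 21 above and 16 below 0, beside -0.00028 for all genes; with library size as the only normalization these medians were -0.0473 and -0.0935. In RNA of whole cultures, fewer cells that use a gene and less RNA per cell cannot be told apart. Leaving out replicate 3 gave 8 higher and 4 lower among the 37 genes, beside 2728 and 2652 of the 12386 genes tested.

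After CHYL-sized emulsion particles, 4 of the genes were higher (*Cpt1a*, *Slc25a20*, *Eci2* and *Acadvl*) and 3 were lower (*Abcd2*, *Echs1* and *Acox3*) than in the same control libraries. These 7 genes make up 18.9% of the 37, and 25.7% of all genes passed, 12.7% higher and 13.0% lower. The 3 genes with an absolute log2 fold change over 0.5 were again *Cpt1a*, *Slc25a20* and *Abcd2*, against 9.56% of all genes. Treated and control libraries were separate, without overlap, in 14 of the 37 genes and in 41.7% of all genes, and the median log2 fold change was 0.0235, beside 0.0013 for all genes. With library size only, the medians were -0.0568 and -0.0788. The number higher was 7 with the replicate number as a block, beside 2468 of all 12637 genes. The number lower was 1 without control replicate 2, beside 1206 of the 12560 genes tested. Without replicate 3 there were 6 higher and 3 lower, beside 2150 and 2032 of the 12386 genes tested. Both comparisons use the same control libraries, so their values are set side by side below without a measure of their agreement: 6 of the 37 genes passed in both, 4 after VLDL-sized particles only, 1 after CHYL-sized particles only and 26 in neither.

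**Figure D1:**
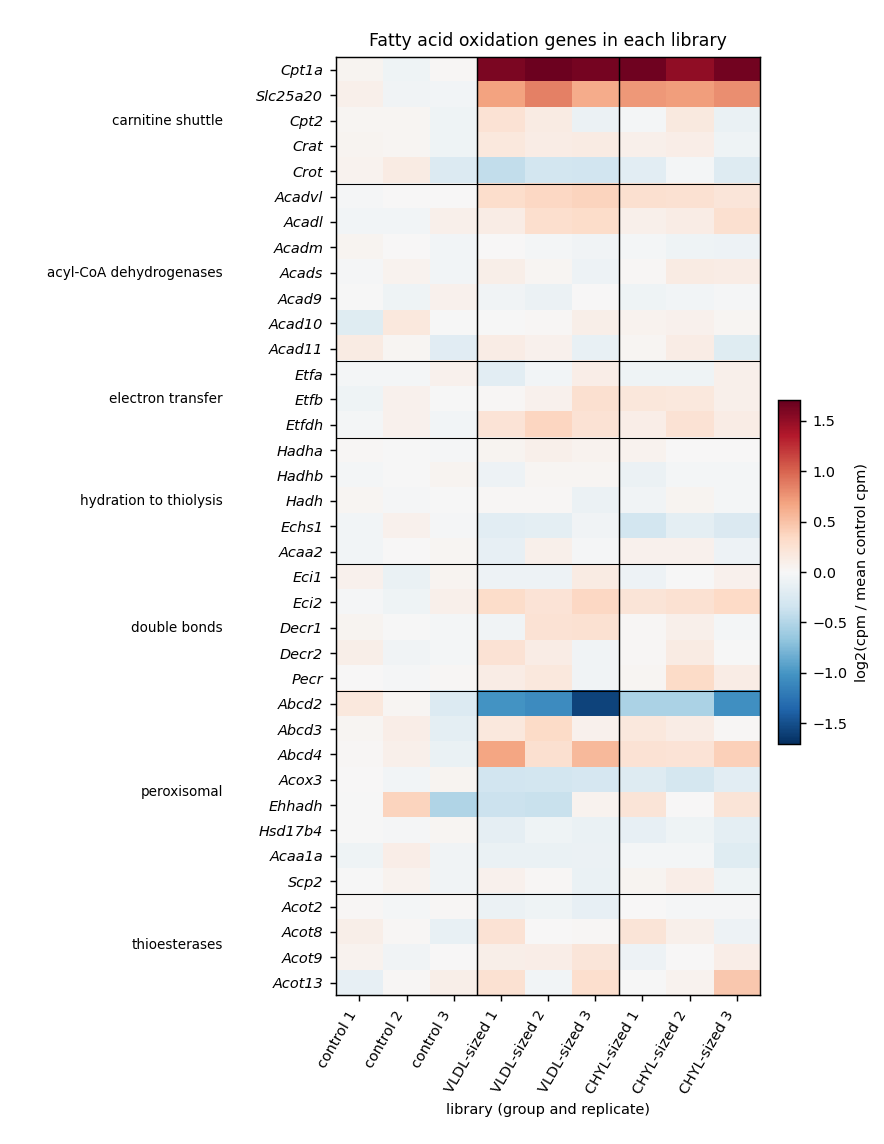
Level of the 37 fatty acid oxidation genes in each of the 9 libraries, as log2 of cpm over the mean control cpm, with genes in rows grouped by role and libraries in columns. *Cpt1a* and *Slc25a20* are red in all 6 treated libraries, *Abcd2* is blue in all 6, and most other rows stay near 0.

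In the carnitine shuttle, 2 of 5 genes rose after both particles and 1 fell after VLDL-sized particles. *Cpt1a* (ENSMUSG00000024900, GRCm38 chr19:3322334-3385733, plus strand) encodes the liver-type carnitine palmitoyltransferase of the outer membrane, the step that malonyl-CoA inhibits. It read 42.9, 39.4 and 42.0 cpm in control replicates 1 to 3, 126, 131 and 128 cpm after VLDL-sized particles and 130.3, 118 and 129 cpm after CHYL-sized particles. The lowest treated library lay far above the highest control library. On the log2 scale the rise was 1.63 ± 0.06 (SE) after VLDL-sized and 1.60 ± 0.06 after CHYL-sized particles, with adjusted p of 2.7e-08 and 3.8e-08. *Cpt1b* and *Cpt1c*, the muscle and brain forms, did not pass and were at 0.345 and 1.21 cpm per kilobase of coding transcript in control, against 21.9 for *Cpt1a*. The promoter window of *Cpt1a* held the hexamer AGGTCA, the unit of nuclear receptor sites, on the other strand from 94 to 89 bases before the RefSeq start. The stretch below is printed because *Cpt1a* rose more than any other of the 37 genes. The capitals mark the hexamer (GRCm38.p6, chr19:3323051-3323280, plus strand). This stretch is upstream of the RefSeq start only, since it lies inside the gene as annotated by GENCODE, which begins at 3322334.

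Cpt1a: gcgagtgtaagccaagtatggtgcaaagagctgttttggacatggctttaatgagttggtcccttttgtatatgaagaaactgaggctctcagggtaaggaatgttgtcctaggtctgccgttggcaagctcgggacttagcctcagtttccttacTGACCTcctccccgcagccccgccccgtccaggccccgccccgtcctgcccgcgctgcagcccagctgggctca

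*Slc25a20* (ENSMUSG00000032602, chr9:108662088-108684641, plus strand), the carnitine-acylcarnitine carrier, read 18.1, 16.3 and 16.5 cpm in the control libraries, 27.2, 30.7 and 26.2 cpm after VLDL-sized and 28.4, 27.8 and 29.4 cpm after CHYL-sized particles. Again all 6 treated libraries were above the control libraries. The log2 fold changes were 0.72 ± 0.08 (SE) and 0.75 ± 0.08, with adjusted p of 6.5e-05 and 8.4e-05. *Slc25a20* was 1 of the 2 genes of the set, with *Etfa*, whose promoter window held a DR1, the arrangement of hexamers spaced by 1 base that PPAR and RXR are known to bind, when up to 1 base in each hexamer was left free. It lies just after the RefSeq start, 6 to 18 bases downstream, and is shown in capitals (chr9:108662134-108662163, plus strand).

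Slc25a20: ctgaatgtAGGTGAAAGGTCGgcggagccg

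*Cpt2* (chr4:107903981-107923610, minus strand), which completes the shuttle on the matrix side, did not pass in either comparison. Its levels were 21.5, 21.6 and 20.0 cpm in the control libraries, 25.1, 23.1 and 19.6 cpm after VLDL-sized and 20.5, 23.7 and 19.4 cpm after CHYL-sized particles, so that the groups overlapped. The 95% interval of its log2 fold change ran from -0.13 to 0.32 and from -0.22 to 0.24. *Crat*, the carnitine acetyltransferase that buffers acetyl-CoA, read 26.0, 25.7 and 24.0 cpm in the control libraries, 28.6, 27.4 and 27.7 cpm after VLDL-sized and 26.8, 27.3 and 24.0 cpm after CHYL-sized particles. The VLDL-sized libraries were all above control, but its log2 fold change of 0.15 had an adjusted p of 0.13. *Crot*, the peroxisomal octanoyltransferase that hands medium-chain acyl groups on to mitochondria, read 25.1, 26.5 and 20.4 cpm in the control libraries, 17.9, 19.3 and 19.1 cpm after VLDL-sized and 21.2, 23.6 and 20.7 cpm after CHYL-sized particles. It fell by 0.35 ± 0.10 (SE) on the log2 scale after VLDL-sized particles, with an adjusted p of 0.022. The adjusted p of that fall was 0.075 without control replicate 1, 0.082 without control replicate 2 and 0.075 without VLDL-sized replicate 1. For *Crot* the value after CHYL-sized particles was -0.13 with an adjusted p of 0.37, which passed only when control replicate 3 was left out (-0.24, adjusted p = 0.047).

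**Figure D2:**
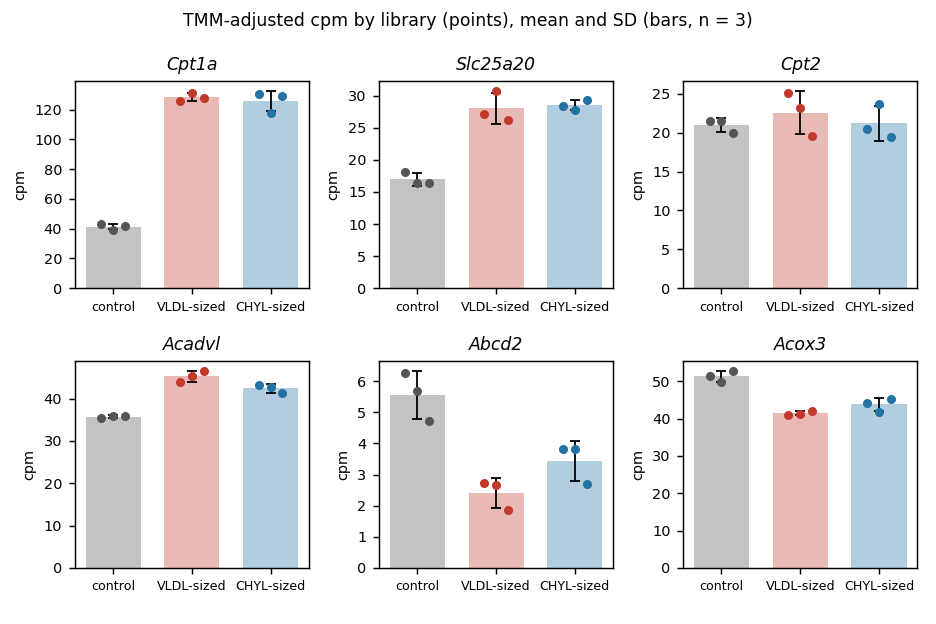
TMM-adjusted cpm of *Cpt1a*, *Slc25a20*, *Cpt2*, *Acadvl*, *Abcd2* and *Acox3* by group; points are libraries, bars are means from 0 and lines are SDs (n = 3). *Cpt1a* triples from about 41.4 to 128 cpm while *Cpt2*, at the other end of the shuttle, overlaps between the groups.

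Of the 7 acyl-CoA dehydrogenases, which catalyse the first dehydrogenation and differ in the chain length they accept, 2 rose after VLDL-sized particles and 1 after CHYL-sized particles. That is 28.6% and 14.3% of the 7, beside 35.6% and 25.7% of all genes. *Acadvl* (ENSMUSG00000018574, chr11:70010183-70015411, minus strand), which takes very long chains at the inner membrane, read 35.3, 36.0 and 35.8 cpm in the control libraries, 43.8, 45.4 and 46.5 cpm after VLDL-sized and 43.2, 42.7 and 41.3 cpm after CHYL-sized particles. The control libraries lay within 1 cpm of each other and below all treated libraries. *Acadvl* rose by 0.34 ± 0.05 (SE) and 0.25 ± 0.05 on the log2 scale, with adjusted p of 0.00048 and 0.0054. *Acadvl* overlaps *Dvl2* on the opposite strand, at 42.3 cpm over all libraries, and the sources used here do not state whether the libraries keep strand. Its promoter window held AGGTCA from 87 to 82 bases before the start, shown in capitals because *Acadvl* was the dehydrogenase that passed in both comparisons (chr11:70015412-70015678, minus strand).

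Acadvl: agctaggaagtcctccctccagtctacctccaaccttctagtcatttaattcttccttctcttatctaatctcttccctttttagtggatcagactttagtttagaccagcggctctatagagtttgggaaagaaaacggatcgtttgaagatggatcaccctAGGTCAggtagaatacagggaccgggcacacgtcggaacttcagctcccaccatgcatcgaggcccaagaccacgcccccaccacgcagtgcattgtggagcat

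*Acadl*, the long-chain enzyme, ranged from 149 to 163 cpm in control, from 167 to 190.3 cpm after VLDL-sized and from 164 to 187 cpm after CHYL-sized particles. The rise after VLDL-sized particles was 0.24 ± 0.07 (SE) on the log2 scale with an adjusted p of 0.021, a call that was lost with library size only (0.15, adjusted p = 0.088) and when control replicate 1 or 2 or VLDL-sized replicate 2 or 3 was left out, with adjusted p of 0.075, 0.073, 0.073 and 0.064. After CHYL-sized particles the value was 0.17 with an adjusted p of 0.11, and it passed without replicate 3 (0.15, adjusted p = 0.047). The medium-chain and short-chain enzymes did not pass: *Acadm* had log2 fold changes of -0.03 and -0.07 and *Acads* of 0.02 and 0.09 after VLDL-sized and CHYL-sized particles. *Acad9*, known also as an assembly factor of respiratory complex I, and *Acad10* and *Acad11* lay between -0.05 and 0.07 in both comparisons; *Acad9* passed as lower after VLDL-sized particles with library size only (-0.14, adjusted p = 0.042).

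The electrons of these dehydrogenases pass through the electron transfer flavoprotein, a dimer of ETFA and ETFB, to its ubiquinone oxidoreductase ETFDH. Of these 3 genes 33.3% passed after VLDL-sized and 0.0% after CHYL-sized particles, beside 35.6% and 25.7% of all genes. Only *Etfdh* passed, with a level of 42.3 to 46.0 cpm in control, 51.5 to 56.3 cpm after VLDL-sized and 47.4 to 51.9 cpm after CHYL-sized particles. All treated libraries were above the control libraries. Its log2 fold change was 0.28 ± 0.06 (SE) for VLDL-sized particles, with an adjusted p of 0.0049, and 0.16 ± 0.06 for CHYL-sized particles, with an adjusted p of 0.081. *Etfdh* overlaps the gene 4930579G24Rik on the opposite strand, at 19.2 cpm. *Etfa* had log2 fold changes of -0.04 and -0.02, and *Etfb* of 0.12 and 0.15; the latter passed without replicate 3 (0.18, adjusted p = 0.028).

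Of all genes 35.6% passed after VLDL-sized and 25.7% after CHYL-sized particles. None of the 5 genes of hydration, the later dehydrogenation and thiolysis in the matrix passed after VLDL-sized particles, and 1 was lower after CHYL-sized particles. HADHA and HADHB form the trifunctional protein, which carries out these steps for long chains. *Hadha* (ENSMUSG00000025745, chr5:30118304-30155162, minus strand) read 150.3, 148 and 146 cpm in the control libraries, 152, 157 and 154 cpm after VLDL-sized and 154, 149 and 148 cpm after CHYL-sized particles. *Hadhb* (ENSMUSG00000059447, chr5:30155248-30184593, plus strand) read 65.2, 66.2 and 68.7 cpm, 62.6, 68.2 and 68.0 cpm, and 62.0, 65.2 and 65.0 cpm in the same order. The log2 fold changes were 0.06 and 0.02 for *Hadha* and -0.01 and -0.06 for *Hadhb*, and the 95% intervals of all 4 lay between -0.18 and 0.15, so that a change as large as that of *Slc25a20* falls outside them. The genes lie head to head, with annotated GENCODE starts 86 bases apart and RefSeq starts 273 bases apart. The stretch between the GENCODE starts is printed because both subunits are transcribed away from it; it is 69.4% G and C and held none of the motifs searched (chr5:30155163-30155247, given on the plus strand).

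Hadha to Hadhb: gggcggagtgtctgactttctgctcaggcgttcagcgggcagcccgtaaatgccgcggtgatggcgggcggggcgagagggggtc

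*Echs1*, the short-chain enoyl-CoA hydratase, ranged from 37.4 to 40.5 cpm in control, from 34.2 to 37 cpm after VLDL-sized and from 31.1 to 34.4 cpm after CHYL-sized particles. It fell by 0.24 ± 0.06 (SE) on the log2 scale after CHYL-sized particles, with an adjusted p of 0.016 over all libraries, an adjusted p of 0.068 without control replicate 2 and of 0.063 without CHYL-sized replicate 1. After VLDL-sized particles its log2 fold change was -0.13 (adjusted p = 0.13); this value passed with library size only (-0.23, adjusted p = 0.016) and without replicate 3 (-0.18, adjusted p = 0.048). *Echs1* overlaps *Paox*, at 8.69 cpm, on the opposite strand. *Hadh*, the short-chain 3-hydroxyacyl-CoA dehydrogenase, had log2 fold changes of -0.02 and -0.02, and *Acaa2*, the matrix thiolase, of -0.03 and 0.02.

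Unsaturated fatty acids such as those of sunflower oil need isomerases and reductases to move or remove their double bonds. Of the 5 genes of this role *Eci2*, an enoyl-CoA isomerase found in peroxisomes and mitochondria, was the only one that passed, in both comparisons. This is 20.0% of the 5 after each particle, beside 35.6% of all genes after VLDL-sized and 25.7% after CHYL-sized particles. *Eci2* ranged from 37.4 to 41.5 cpm in control, from 46.2 to 49.9 cpm after VLDL-sized and from 45.6 to 49.6 cpm after CHYL-sized particles, without overlap. The rises were 0.30 ± 0.06 (SE) and 0.27 ± 0.06 on the log2 scale, with adjusted p of 0.0033 and 0.0080. Its mitochondrial counterpart *Eci1* had log2 fold changes of -0.01 and -0.01. The dienoyl-CoA reductase of mitochondria, *Decr1*, had 0.15 and 0.02, and its peroxisomal relative *Decr2* had 0.10 and 0.06. *Decr1* passed after VLDL-sized particles when VLDL-sized replicate 1, its lowest library of that group, was left out (0.25, adjusted p = 0.039). *Pecr*, a peroxisomal trans-2-enoyl-CoA reductase, had 0.08 and 0.17 and did not pass.

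Of the 8 genes listed under peroxisomal import and oxidation, 1 was higher (*Abcd4*) and 2 were lower (*Abcd2* and *Acox3*) after VLDL-sized particles, and 0 were higher and the same 2 lower after CHYL-sized particles. These make up 37.5% and 25.0% of the 8, beside 35.6% and 25.7% of all genes. *Abcd2* (ENSMUSG00000055782, chr15:91145871-91191799, minus strand), an importer of very long-chain and polyunsaturated acyl-CoA, fell most. It read 6.27, 5.69 and 4.72 cpm in the control libraries, 2.74, 2.65 and 1.87 cpm after VLDL-sized and 3.81, 3.83 and 2.69 cpm after CHYL-sized particles. The lowest control library was above the highest treated library, and replicate 3 was the lowest library of every group. On the log2 scale *Abcd2* changed by -1.20 ± 0.20 (SE) with VLDL-sized particles, with an adjusted p of 0.0010. With CHYL-sized particles the change was -0.70 ± 0.18 and the adjusted p 0.019 over all libraries, with an adjusted p of 0.069 without control replicate 1, 0.054 without control replicate 2 and 0.068 without CHYL-sized replicate 3. Without any library of replicate 3, the values were -1.14 and -0.64, both past the threshold (adjusted p = 8.1e-05 and 0.0042).

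*Acox3* (ENSMUSG00000029098, chr5:35583040-35615352, plus strand), an oxidase of branched-chain acyl-CoA, read 51.5, 49.9 and 52.9 cpm in the control libraries, 40.9, 41.3 and 42.0 cpm after VLDL-sized and 44.2, 41.9 and 45.3 cpm after CHYL-sized particles. All treated libraries were below control. *Acox3* fell by 0.31 ± 0.05 (SE) and by 0.23 ± 0.05 on the log2 scale, with adjusted p of 0.0010 and 0.0082.

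*Abcd4*, now known as the transporter that releases vitamin B12 from lysosomes although it is grouped with the peroxisomal transporters by sequence, read 15.1, 15.9 and 13.8 cpm in the control libraries, 23.7, 18.0 and 21.8 cpm after VLDL-sized and 17.8, 17.5 and 19.8 cpm after CHYL-sized particles. Treated and control libraries did not overlap. Its log2 fold changes were 0.50 ± 0.11 (SE) with VLDL-sized particles, with an adjusted p of 0.0050, and 0.30 ± 0.11 with CHYL-sized particles, with an adjusted p of 0.075 that became 0.043 in a fit of only these groups. *Abcd3*, the most abundant of the 3 transporters per kilobase, had log2 fold changes of 0.20 and 0.11. The former had an adjusted p of 0.10, 0.049 when VLDL-sized replicate 3 was left out, 0.033 without replicate 3 in any group, and 0.0065 with the replicate number as a block.

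The multifunctional enzymes EHHADH and HSD17B4 hydrate and oxidize the products of the oxidases, and ACAA1A and SCP2 cleave them. *Hsd17b4* was at 76.0 ± 1.43 cpm in control, 70.2 ± 1.78 cpm after VLDL-sized and 69.8 ± 2.44 cpm after CHYL-sized particles. Its log2 fold changes of -0.12 and -0.12 had adjusted p of 0.084 and 0.083; both passed with the replicate number as a block (adjusted p = 0.045 and 0.040) and with library size only (-0.21, adjusted p = 0.0070 and -0.20, adjusted p = 0.011). *Ehhadh* was the lowest of the 37 genes, at 1.07 to 1.98 cpm in all libraries, and the intervals of its log2 fold change, from -0.74 to 0.38 and from -0.34 to 0.72, were the widest of the genes that did not pass. *Acaa1a* had log2 fold changes of -0.11 and -0.09, and *Scp2* of -0.01 and 0.03. Reads of *Acaa1a* can be split with its near-copy *Acaa1b*, at 3.07 cpm in control, and *Acaa1a* overlaps *Myd88*, at 77.1 cpm, on the opposite strand.

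Acyl-CoA thioesterases release free fatty acid from acyl-CoA and so work against oxidation or relieve it of surplus acyl-CoA. None of the 4 examined passed after either particle, while 35.6% of all genes passed after VLDL-sized and 25.7% after CHYL-sized particles. The log2 fold changes after VLDL-sized and CHYL-sized particles were -0.10 and -0.01 for the mitochondrial *Acot2*, 0.09 and 0.08 for the peroxisomal *Acot8*, 0.14 and 0.01 for the mitochondrial *Acot9* and 0.17 and 0.18 for *Acot13*, and the 95% intervals of all 8 values lay between -0.27 and 0.47. *Acot2* lies 15.6 kilobases from its close paralog *Acot1*, which had at most 3.14 counts in any library.

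None of the 37 genes differed between VLDL-sized and CHYL-sized emulsion particles at an adjusted p under 0.05, and neither did any of the 12637 genes in this fit (0.0%). At an unadjusted limma p under 0.05 there were 813 of all genes and 1 of the 37, *Abcd2*. DESeq2 called 24 of all genes, edgeR 0 limma with the replicate number as a block 147 and limma without replicate 3 257, and none of these was among the 37. *Abcd2* also had the largest difference, -0.51 ± 0.22 (SE), with an adjusted p of 0.77 and a 95% interval from -0.998 to -0.02. For *Cpt1a* the interval of the difference ran from -0.09 to 0.15 and for *Slc25a20* from -0.19 to 0.13. For 35 of the 37 genes it lay within 0.5 of 0 on the log2 scale; the exceptions were *Abcd2* and *Ehhadh*.

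**Figure D3:**
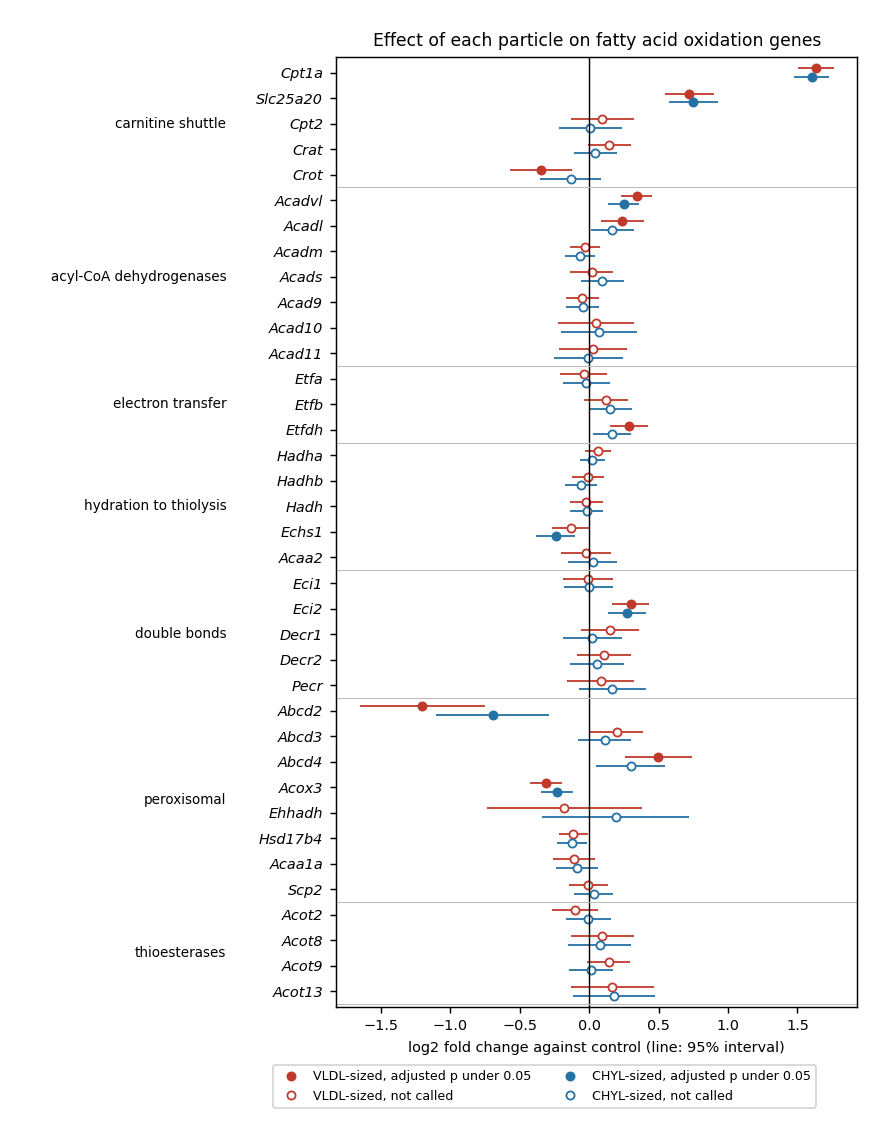
Log2 fold change against control of each of the 37 genes after VLDL-sized (red) and CHYL-sized (blue) particles, with 95% intervals; filled points have an adjusted p under 0.05. The intervals of both particles overlap for every gene, and only *Cpt1a*, *Slc25a20* and *Abcd2* have filled points beyond 0.5.

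The summed level of the 37 genes was 1576 ± 4.99 cpm in control, 1729 ± 24.0 cpm after VLDL-sized and 1701 ± 11.9 cpm after CHYL-sized particles. Control libraries ranged from 1571 to 1581 cpm and treated libraries from 1689 to 1747 cpm. Without *Cpt1a* the sums were 1535 ± 6.25, 1600.4 ± 21.6 and 1576 ± 18.2 cpm, and all VLDL-sized and CHYL-sized libraries were still above the control libraries. This order rested on the TMM factors: with library size only, an alternative for these sums that was chosen after seeing the data, the sums without *Cpt1a* were 1598 ± 31.5, 1561 ± 25.0 and 1552 ± 25.6 cpm, lower on average with particles, and those of all 37 genes were 1641 ± 31.6, 1687 ± 28.4 and 1675 ± 21.8 cpm. By role, the carnitine shuttle went from 129 ± 5.39 to 226 ± 5.75 and 223 ± 3.49 cpm, whereas the matrix enzymes from hydration to thiolysis summed to 341 ± 0.741, 342 ± 7.26 and 334 ± 4.57 cpm, or to 355 ± 6.53, 334 ± 9.10 and 329 ± 7.57 cpm with library size only. The 8 peroxisomal genes summed to 375 ± 12.1, 364 ± 10.0 and 366 ± 13.5 cpm, and these libraries overlapped; with library size only they summed to 390.4 ± 18.0, 356 ± 13.5 and 360.2 ± 17.6 cpm.

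To compare levels between genes, cpm was divided by the mean length of each gene's coding transcripts. On this scale *Scp2* was the most abundant in control (102 ± 3.99 cpm per kilobase), followed by *Etfb* (87.8 ± 4.14), *Acadl* (80.3 ± 4.20) and *Etfa* (69.2 ± 2.93). *Etfb* and *Acadl* differed by less than the sum of their SDs. *Hadhb*, *Hadh*, *Acadm*, *Eci1*, *Hadha* and *Eci2* lay between 35.7 and 39.6 cpm per kilobase, and neighbours in that order differed by less than the sum of their SDs. Of the subunits of the trifunctional protein, *Hadha* was at 36.8 ± 0.571 and *Hadhb* at 39.6 ± 1.06 in control, while on the union of exons *Hadha* was the higher, at 16.9 against 10.1. *Cpt1a* was at 21.9 ± 0.948 cpm per kilobase in control, above *Cpt2* at 18.1 ± 0.761, and at 67.9 ± 1.46 after VLDL-sized particles, where it stood beside *Etfa* (67.6 ± 6.75). *Acad10* (1.35 ± 0.184), *Abcd2* (1.00 ± 0.142) and *Ehhadh* (0.511 ± 0.152) were the lowest. Dividing by the union of all annotated exons gave lower values and another order, with *Acadl* first (76.7), *Scp2* at 34.4 and *Cpt1a* at 5.42 in control and 16.8 after VLDL-sized particles; changes between groups are not touched by the choice of length.

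**Figure D4:**
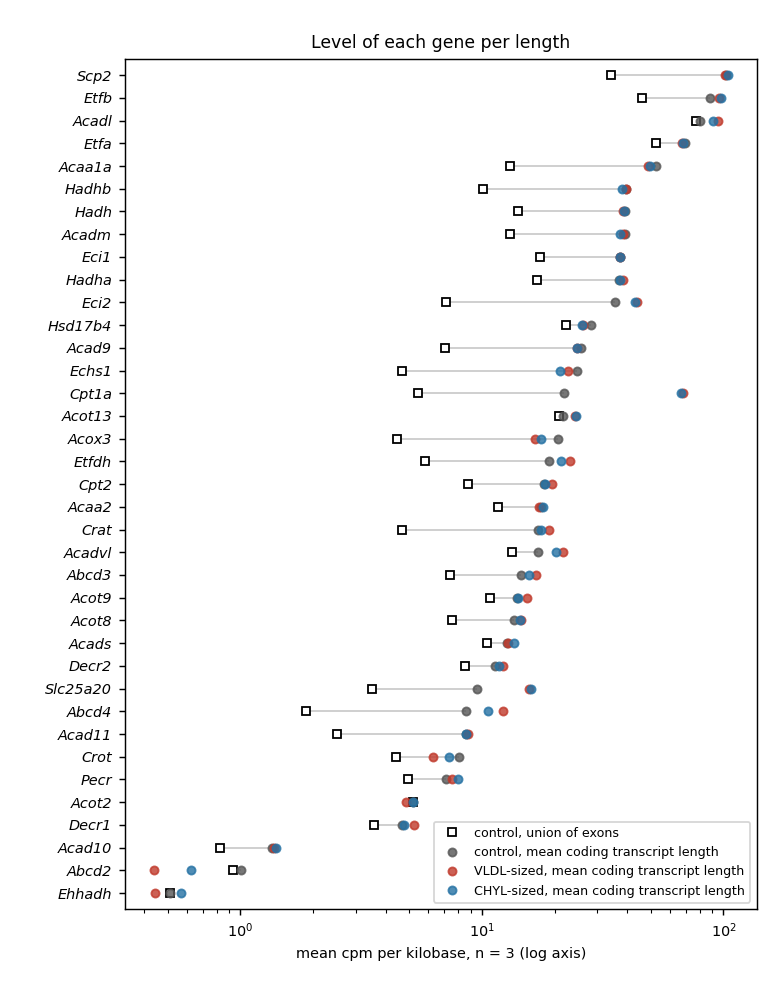
Mean cpm per kilobase of the 37 genes (n = 3, log axis), in control (grey), VLDL-sized (red) and CHYL-sized (blue) libraries with the mean coding transcript length, and in control with the union of exons (squares). The genes span from about 0.5 (*Ehhadh*) to about 100 cpm per kilobase (*Scp2*), and *Cpt1a* is the point that leaves its grey mark furthest to the right.

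Neighbouring genes from lists drawn up from general knowledge were read from the same fit; the named genes are, by list, drawn from the 3 with the largest change after VLDL-sized particles among those that passed, and others are named, after their values were seen, where few genes passed. Of 40 other oxidation and acyl-CoA transport genes, 31 were tested, and 8 were higher and 5 lower after VLDL-sized particles and 5 higher and 4 lower after CHYL-sized particles. These make up 41.9% and 29.0% of the 31, beside 35.6% and 25.7% of all genes. Among the largest changes were those of *Acacb*, the acetyl-CoA carboxylase whose product malonyl-CoA inhibits CPT1 (0.74, from 3.40 ± 0.339 to 5.70 ± 0.347 cpm) and of *Hibch*, an enzyme of valine breakdown (0.61). Their values after CHYL-sized particles were 0.61 and 0.46, both past the threshold. Genes lower after VLDL-sized particles included *Mlycd*, which degrades malonyl-CoA (-0.44 and -0.36), *Nudt19*, a peroxisomal hydrolase of coenzyme A (-0.26 and -0.22), *Pccb* (-0.18 and -0.19) and *Mut* (-0.23 and -0.18), of which *Mut* did not pass after CHYL-sized particles. *Ivd* and *Acot7* were also among the 5 that were higher after CHYL-sized particles (0.43 and 0.38). The genes that failed the filter were *Acox2*, *Slc27a2*, *Acot3* and *Acot12*, without a count in any library, and *Acot4*, *Eci3*, *Echdc3*, *Acot1* and *Echdc2*, with highest counts of 1.07, 1.90, 2, 3.14 and 5.

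All 18 genes of peroxisome biogenesis were tested, and 22.2% passed after VLDL-sized and 16.7% after CHYL-sized particles, beside 35.6% and 25.7% of all genes. After VLDL-sized particles 4 were higher and 0 lower, among them *Pex13* (0.76, from 35.4 ± 2.37 to 59.9 ± 3.73 cpm), *Pex3* (0.25) and *Pex14* (0.22), and after CHYL-sized particles 3 were higher, among them *Pex13* (0.63) and *Pex14* (0.22), and 0 lower. This direction did not hold throughout: with library size only 2 were higher and 4 lower after VLDL-sized particles, with the replicate number as a block 4 were lower, and without replicate 3 there were 2 lower. Of all 12637 genes 1507 were higher and 3312 lower with library size only, and 3012 were lower with the block. Without replicate 3, 2652 of 12386 genes were lower. The median log2 fold change of the 18 genes was -0.05 after VLDL-sized particles. *Pex13* is part of the docking complex for imported enzymes.

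Of the 17 genes of the tricarboxylic acid cycle, which burns the acetyl-CoA, 3 were higher after VLDL-sized particles, among them *Dld* (0.22) and *Sucla2* (0.20), and 1 after CHYL-sized particles, and none was lower. With library size only the counts after VLDL-sized particles were 1 higher and 2 lower, and with the replicate number as a block or without replicate 3 there were 5 higher, beside 1 lower without replicate 3. Of all 12637 genes 1507 were higher and 3312 lower with library size only, and 3046 were higher with the block. Without replicate 3, 2728 of 12386 genes were higher and 2652 lower. The share of the list that passed was 17.6% after VLDL-sized and 5.88% after CHYL-sized particles, beside 35.6% and 25.7% of all genes. The median log2 fold change of the list was 0.06 after VLDL-sized and 0.03 after CHYL-sized particles.

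Of 13 genes of lipid handling that PPARs are known to drive, 10 were tested, 3 higher and 1 lower after VLDL-sized particles and 4 higher and 0 lower after CHYL-sized particles. That is 40.0% of the 10 after each particle, beside 35.6% and 25.7% of all genes. *Plin2*, the lipid droplet coat protein, rose from 343 ± 24.4 to 1205 ± 61.9 cpm (log2 fold change 1.82, adjusted p = 1.9e-08), and *Hilpda*, an inhibitor of adipose triglyceride lipase, from 6.12 ± 0.699 to 18.3 ± 1.95 cpm (1.58, adjusted p = 1.7e-05). *Lpl*, the lipoprotein lipase, was also higher after both particles (0.22 and 0.21), and *Cd36*, a fatty acid transporter, after CHYL-sized particles at a level of under 1 cpm (2.03, adjusted p = 0.041). *Tgm2*, a transglutaminase, fell by 0.98 from 0.988 ± 0.133 to 0.488 ± 0.0583 cpm after VLDL-sized particles (adjusted p = 0.034), a call that was lost without replicate 3, while with the replicate number as a block 2 were lower. Of all 12637 genes 3012 were lower after VLDL-sized particles with the block. *Pdk4*, the kinase that spares glucose when fatty acids are burnt, had at most 1 count in any library, *Gpd1* at most 8.85 and *Cidec* none.

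Among 18 regulators, 15 were tested, and *Ppard* (0.98, from 11.7 ± 0.355 to 23.3 ± 3.36 cpm, adjusted p = 7.0e-05), its partner *Rxra* (0.34) and *Prkaa1*, a catalytic subunit of AMP-activated kinase (0.18), were higher after VLDL-sized particles. After CHYL-sized particles the same 3 were higher (0.63, 0.35 and 0.21) and *Pprc1*, a coactivator of the PGC-1 family, was lower (-0.19, adjusted p = 0.035). The share of the 15 that passed was 20.0% after VLDL-sized and 26.7% after CHYL-sized particles, beside 35.6% and 25.7% of all genes. No regulator was lower after VLDL-sized particles in this fit, but 3 were with library size only, 3 with the replicate number as a block and 2 without replicate 3. Of all 12637 genes 3312 were lower with library size only and 3012 with the block. Without replicate 3, 2652 of 12386 genes were lower. *Ppara*, the main PPAR of the liver, had at most 9 counts in any library, and *Ppargc1a* and *Prkaa2* had none.

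Ketone body genes handle the acetyl-CoA that is not burnt. Of 7 genes 4 were tested, and 3 were lower after each particle. Of all genes 17.9% were lower after VLDL-sized and 13.0% after CHYL-sized particles. *Acat2* fell from 117 ± 3.06 to 35.8 ± 10.0 cpm (-1.74, adjusted p = 1.9e-05), *Aacs* from 67.5 ± 7.86 to 22 ± 1.79 cpm (-1.62, adjusted p = 1.5e-06) and *Oxct1* from 324 ± 11.2 to 293 ± 8.76 cpm (-0.15, adjusted p = 0.047). *Acat2*, the cytosolic acetoacetyl-CoA thiolase, and *Aacs* are also known for supplying sterol synthesis, while *Oxct1* is the mitochondrial enzyme of ketone use. *Bdh1* had at most 1 count and *Bdh2* at most 10.

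**Figure D5:**
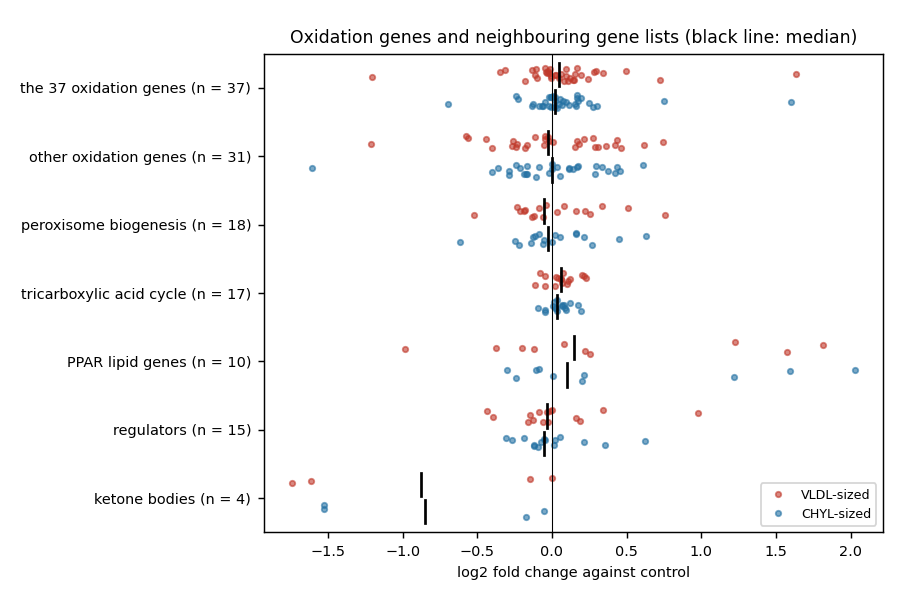
Log2 fold change against control of the 37 oxidation genes and of the tested genes of 6 neighbouring lists, after VLDL-sized (red) and CHYL-sized (blue) particles; each point is a gene and the black line is the median. The medians lie between -0.05 and 0.15 except for the 4 ketone body genes, and the points furthest from 0 are *Plin2*, *Cpt1a* and *Hilpda* to the right, *Acat2* and *Aacs* to the left and the low genes *Cd36* and *Cpt1b*.

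The 37 genes lie on 16 chromosomes. RefSeq promoter windows of 300 bases, 250 before and 50 after the start, matched 29 of them (30 windows), and *Abcd2*, *Abcd4*, *Acaa2*, *Acad9*, *Acot13*, *Crat*, *Decr1* and *Hsd17b4* were without a match. The hexamer AGGTCA on either strand was in 5 windows (*Cpt1a*, *Acadvl*, *Acadm*, *Echs1* and *Scp2*) and in 12.3% of the 11882 windows of tested genes. A DR1 with up to 1 free base in each hexamer was in 2 windows (*Slc25a20* and *Etfa*) and in 1.92% of those of tested genes, and its exact form, AGGTCANAGGTCA, was in none and in 0.034%. The site of the oestrogen-related receptors, TNAAGGTCA, was in none and in 0.741%. The antioxidant response element, TGACNNNGC, was in 2 windows (*Ehhadh* and *Scp2*) and in 14.3%, and the NRF1 site, GCGC followed after any 2 bases by another GCGC, was in 4 (*Abcd3*, *Acad10*, *Etfb* and *Etfdh*) and in 13.4%. The hexamer is contained in the exact DR1 and in the oestrogen-related receptor site, so these shares are not independent. A match of letters is a description of the window and not a site of binding.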

How the data were processed

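RNA-sequencing was performed by the authors on 9 libraries of RAW 264.7 cells. The authors mapped the reads with Salmon 0.14.1 to GENCODE transcripts of GRCm38.p6 and the estimated counts they deposited were summed by gene with tximport. Their methods state scaling by transcript length and library size, but 58.3% of the values above 10 were whole, so they were treated as unscaled. Genes with a count over 10 in 3 or more libraries were tested with limma 3.58.1 (R 4.3.3) after TMM normalization with edgeR 4.0.16 and voom weights, in 1 model of all libraries without a block, with Benjamini-Hochberg adjustment over 12637 genes. Steps were tested on simulated counts. All 37 genes are named; every library's cpm is given for those past an adjusted p of 0.05 and an absolute log2 fold change of 0.5, for the carnitine shuttle and for *Hadha*, *Hadhb*, *Acox3* and *Acadvl*, and for *Abcd4* by later choice. Of the neighbouring lists, the 3 genes with the largest change among those past the threshold are named, though some genes are not reported here. The genes and lists were chosen with earlier results of these data known. Same-numbered VLDL-sized and control libraries deviated together (r = 0.137, 0.132 and 0.293 across genes, all over 0.1), so values with the replicate number as a block are given where they change a call. Alternatives were library size only, upper-quartile normalization, edgeR, DESeq2 1.42.0 (both on rounded counts), limma-trend with a prior count of 2, no filter, a minimum of 50 counts, only the groups compared, the block, each replicate left out, and replicate 3 removed.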

Additional observations from a re-analysis of the deposited data

How the results depend on the processing

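The number of the 37 genes that were lower after VLDL-sized particles was 3 and became 6 with library size only, a setting that moved the median of all genes to -0.0935 (VLDL-sized) and -0.0788 (CHYL-sized) and the share of higher genes among all genes that passed from 49.9% to 31.3% and from 49.6% to 29.8%. The median log2 fold change of the 37 genes after VLDL-sized particles (0.0458) was -0.0473 with library size only, 0.0391 with upper-quartile normalization, 0.0361 with edgeR and 0.0373 with DESeq2, and 0.0310 to 0.0721 when a replicate was left out. After CHYL-sized particles the median (0.0235) was -0.0568 with library size only and 0.00922 to 0.0771 when a replicate was left out, the number lower (3) was 1 to 4 when a replicate was left out, and the number higher (4) was 7 with the replicate number as a block. The median difference between the particles (0.00836) was -0.0049 with library size only, 0.0262 without replicate 3 and 0.00280 to 0.0216 when a replicate was left out. The cause of these shifts was not tested. Correlations of same-numbered libraries were all over 0.1 only for VLDL-sized against control, where VLDL-sized 2 with control 1 also reached 0.115. They were 0.122, 0.068 and 0.338 for CHYL-sized against control and 0.029, 0.118 and 0.359 for VLDL-sized against CHYL-sized. Replicate 3 had the highest correlation in each comparison. By chi-square per gene, VLDL-sized 3 was nearer to CHYL-sized 3 (6.26) than to VLDL-sized 1 and 2 (14.0 and 12.6). The labels give these samples only a shared number. The block added *Acadl*, *Etfdh*, *Abcd4* and *Hsd17b4* after CHYL-sized particles, *Abcd3* and *Hsd17b4* after VLDL-sized particles, and changed no other call among the 37 genes; over all genes it raised the calls from 4500 to 6058 after VLDL-sized from 3249 to 4949 after CHYL-sized particles and from 0 to 147 between the particles, where DESeq2 called 24 and removal of replicate 3 gave 257. Of 1773 gene values under an alternative, 1642 kept their direction and their side of the threshold, 13 lost and 18 gained the call, 100 changed sign without being called in either fit, and none that was called changed sign. *Cpt1a*, *Slc25a20*, *Acadvl*, *Eci2* and *Acox3* passed in all 16 alternatives of both comparisons with control, and *Abcd2*, *Abcd4* and *Etfdh* in all 16 of VLDL-sized against control. At a depth of 22393893 counts or more, the genes with the fewest counts, *Ehhadh* and *Abcd2*, had the widest intervals.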
